A study of Mus musculus with 4 samples.

Results

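The genes described here encode the nuclear subunits of the mitochondrial oxidative phosphorylation machinery in mouse liver. They were chosen by symbol alone: Nduf followed by a, b, c, s or v and a digit (complex I), Sdha to Sdhd (complex II), Uqcr (complex III), Cox4 to Cox8 (complex IV) and Atp5 (complex V, the ATP synthase), with 1 pseudogene symbol ending in -ps dropped. This rule gave 84 of the 32285 genes listed: 37 for complex I, 4 for complex II, 8 for complex III, 18 for complex IV and 17 for complex V. All 84 are annotated as protein-coding, on 19 chromosomes, 3 of them on the X chromosome. In the cells kept, 82 had at least 1 unique molecular identifier (UMI, 1 counted RNA molecule), and 81 had one in every library. Cox7b2 and Cox8c, isoforms best known from testis, had none.

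In the inner mitochondrial membrane, complexes I and II take electrons from NADH and succinate, complex III passes them to cytochrome c, and complex IV hands them to oxygen. Complexes I, III and IV pump protons, and the ATP synthase uses the resulting gradient to make ATP. Most subunits are nuclear genes made in the cytosol, while a small core is encoded by mitochondrial DNA; in liver, hepatocytes depend on this machinery for fatty acid oxidation, gluconeogenesis and urea synthesis.

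Liver cells of male C57BL/6J mice were studied by single-cell RNA sequencing from the 5′ end. In the MASH groups (metabolic dysfunction-associated steatohepatitis), mice had received a Western diet, sugar water and low weekly doses of carbon tetrachloride, a liver toxin, for 12 or 24 weeks, starting at 8 weeks of age. Chow groups of the same strain and starting age were fed ordinary chow for the same times. Each of the 4 groups was 1 library, so diet, sugar, toxin and library cannot be told apart. Livers were enriched for non-parenchymal cells on Percoll, which takes out most hepatocytes, and red cells were lysed. Hashtag antibodies labelled the cells, with 3 in use per library at 12 weeks and 8 at 24 weeks; what a hashtag marks is not stated, so hashtags were not counted as animals or replicates.

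The MASH libraries kept 15048 cells at 12 weeks and 17555 at 24 weeks, against 16345 and 21652 in the chow libraries. Kept cells held between 43449125 and 84571131 UMIs per library. The median cell was deeper in MASH, at 3055.5 UMIs at 12 weeks and 3177 at 24 weeks, against 1982 and 2077 in chow. Cells were clustered and named from marker genes, giving 15 classes; 13 carry a cell type name, and 2 are called by their leading genes, a C1q cluster and a cycling cluster. Having at least 1 UMI in a summed class is a low bar for a marker. The 7 markers of plasmacytoid dendritic cells had UMIs in every library also in B-cell-like, T-cell-like and endothelial-like cells. By that bar all fixed markers of a class were present in every library in 12 of the 13 named classes. The class fixed as stellate or fibroblast showed 6 of 9 in each chow library. Its collagen genes and Dcn led, Pdgfrb was present, and the stellate cell markers Lrat and Reln were at 0 UMIs in both chow libraries and at 8 to 15 UMIs in MASH, with Rgs5 at 0 and at 1 to 2, so it is called fibroblast-like here. Cells of unnamed clusters, 11.9% and 5.45% in MASH and 13.5% and 9.75% in chow at 12 and 24 weeks, enter only the sums over all cells. Barcodes shared between pairs of libraries numbered 487 to 732, near the 499 to 739 that independent draws would give; the 12-week MASH library could not be compared this way. With 1 library a group there is no replicate check and no test: levels are counts per 1000000 UMIs of a class (CPM), and ratios carry a 95% interval that covers counting error only. A member is called higher or lower where it differs at least 1.5-fold, its interval lies off 1 and the 2 libraries together hold at least 20 of its UMIs in that class.

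Hepatocyte-like cells held the highest summed level of the 84 genes in each of the 4 libraries. In them the genes made up 52108 CPM in 12-week MASH and 55930 CPM in 24-week MASH, against 59841 CPM in 12-week chow and 73749 CPM in 24-week chow. That was between 2.54 and 3.46 times the median class of the same library. Cholangiocyte-like cells followed with 29167 and 26365 CPM in MASH at 12 and 24 weeks and 36305 and 44318 CPM in chow. Erythroid-like cells were lowest in MASH, at 11906 and 12189 CPM, and held 14864 and 18141 CPM in chow. Neutrophil-like cells, at 13934 and 12796 CPM in MASH and 13498 and 13158 CPM in chow, were the lowest class of both chow libraries. B-cell-like cells also lay low, between 14786 and 15944 CPM in all 4 libraries, while T-cell-like, NK-like, endothelial-like, dendritic-like and monocyte-like cells lay between 19225 and 24363 CPM. Between 64 and 67 members per library peaked in hepatocyte-like cells, and the share of all genes that did so was not computed. The same top class in all 4 libraries was recorded for 70 of the 84, and the share of all genes was not computed here either. The count of 70 did not set apart Cox7b2 and Cox8c, which had no UMIs and so no top class, and may include them.

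**Figure D1:**
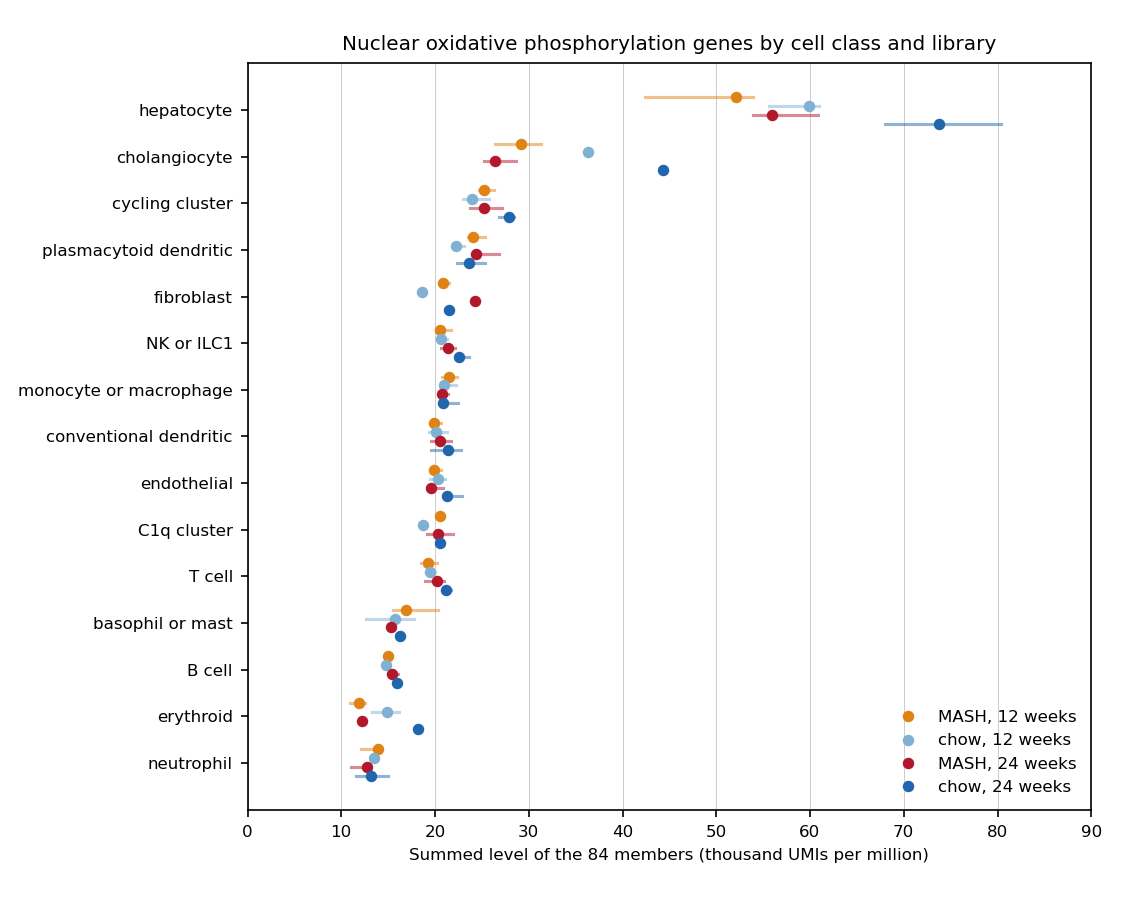
Summed level of the 84 nuclear oxidative phosphorylation genes (CPM, axis in units of 1000) in each cell class, 1 point per library, MASH above chow at each week; bars span the values by hashtag where at least 2 hashtags had enough cells. Hepatocyte-like cells lie highest in every library, between 52108 and 73749 CPM.

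The hepatocyte-like class is 1 cluster with Fabp1, Gnmt, Car3 and Gsta3 among its leading genes. None of the 8 fixed hepatocyte markers, Alb and Apoa1 among them, was in its top 10 genes, although all 8 had UMIs in every library, the low bar named above. Its cells were shallow, with a median of 965 UMIs in 12-week MASH and 1418 in 24-week MASH, against 837.5 and 1011 in chow; in 12-week MASH this was 31.6% of the library's median, and in the other 3 libraries 42.3% to 48.7%. They also carried little mitochondrially encoded RNA. The ratio of the 13 mitochondrially encoded subunit genes to the 84 nuclear genes was 0.30 in 12-week MASH and 0.20 in 24-week MASH, against 0.18 and 0.11 in chow. Whether the droplets of this class were whole cells was not tested.

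Before the diet comparisons, a property of the libraries has to be set beside them. Members were split by GENCODE transcript length into 3 groups of 28 genes, short (at most 575 nucleotides), middle and long (above 932 nucleotides). Over all cells the summed level of the short group was 1.89 times that of the long group in 12-week MASH and 1.65 times in 24-week MASH, against 1.48 and 1.92 times in chow. The 12-week chow library was thus the lowest and the 24-week chow library the highest. For MASH over chow at 12 weeks, the median log2 ratio of the short group lay above that of the long group in 15 of 15 classes, with a median gap of 0.42. At 24 weeks it lay above in 2 of 15 classes, with a median gap of -0.18. Other genes split at the same limits gave median gaps of 0.29 and -0.08, in the same directions. The long group has no upper limit, and most other genes fall in it. In B-cell-like cells at 12 weeks it held 9456 other genes, against 149 short and 579 middle ones. Over all cells the short members had a median log2 ratio of 0.18 at 12 weeks and -0.23 at 24 weeks. The part of this length pattern in the ratios of single members was not tested. Sums relative to genes of like length, meaning other genes of the same length group, are given where they move a value. For long members these are most of all other genes, so lengths are matched only loosely there.

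**Figure D2:**
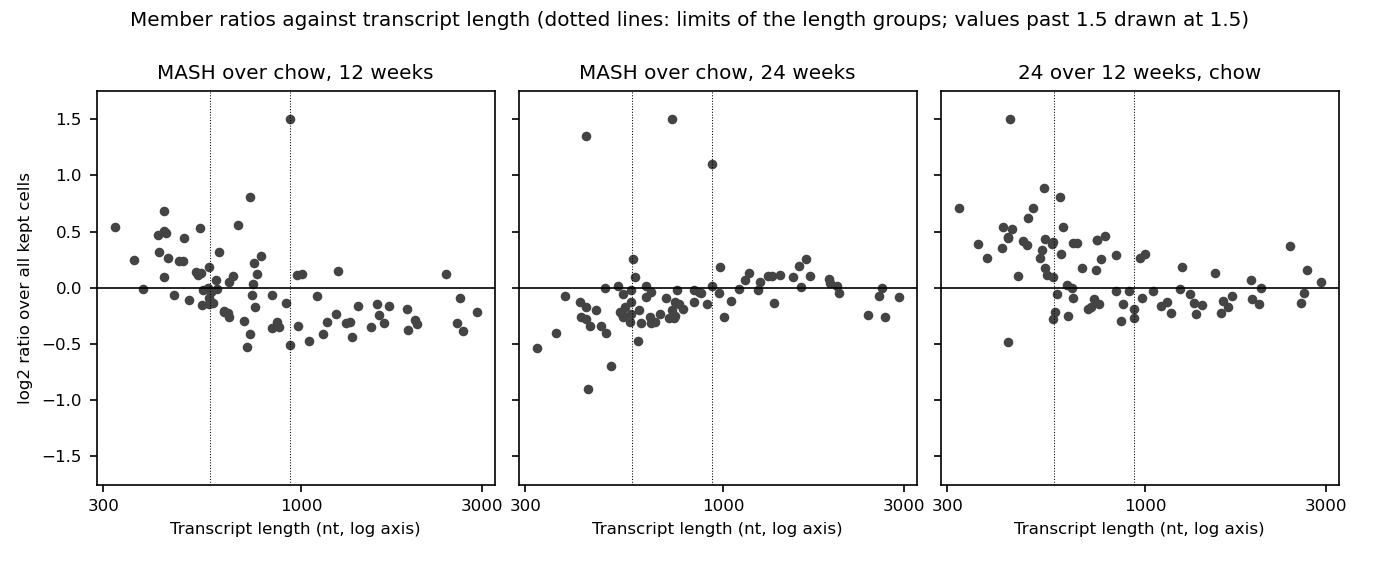
Log2 ratio of each member over all kept cells (1 point per member, values past 1.5 drawn at 1.5) against the length of its transcript in nucleotides (log axis), for MASH over chow at 12 and 24 weeks and for 24 over 12 weeks in chow; dotted lines part the length groups. Short members have a median of 0.18 in MASH over chow at 12 weeks and of -0.23 at 24 weeks.

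Over all kept cells, the 84 genes summed to 19826 CPM in 12-week MASH, against 20636 CPM in 12-week chow, a ratio of 0.961 (0.958–0.963). At 24 weeks they summed to 20589 CPM in MASH and 22730 CPM in chow, a ratio of 0.906 (0.904–0.908). These sums mix cell classes, so fewer cells of a class and less RNA per cell cannot be told apart in them. Against 24-week chow cells of hashtags 1 to 4 the 24-week ratio was 0.909, and against those of hashtags 5 to 8 it was 1.01, on the other side of 1. Without hepatocyte-like cells, which were 2.81% and 3.51% of MASH cells and 8.23% and 9.05% of chow cells, the ratios were 1.02 and 0.990. At 12 weeks 2 of 81 members compared were higher in MASH and 0 lower, where 14.2% of all genes were higher and 6.96% lower. At 24 weeks 3 of 81 were higher and 2 lower, against 19.6% and 8.27% of all genes.

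Within classes, the MASH-over-chow ratio of the summed level stayed within 10% of 1 in 11 of 15 classes at each week. At 12 weeks its counting interval lay above 1 in 7 classes, below 1 in 5 and held 1 in 3; at 24 weeks it lay above 1 in 2 classes, below 1 in 11 and held 1 in 2. The classes beyond 10% at both weeks were hepatocyte-like, cholangiocyte-like and erythroid-like cells, which were lower in MASH, and fibroblast-like cells, which were higher. Of 1161 member and class pairs compared at 12 weeks, 67 (5.77%) were higher in MASH and 54 (4.65%) lower, where 5.44% and 6.65% of all gene and class pairs were. Of 1162 at 24 weeks, 16 (1.38%) were higher and 111 (9.55%) lower, where 8.76% and 6.04% of all pairs were. Relative to genes of like length 40 of 1161 pairs were higher at 12 weeks, where 5.7% of all pairs were, and without doublet removal 72 of 1171 were lower at 24 weeks, where 7.12% were. At a limit of 2-fold 12 of 1161 pairs were higher and 9 lower at 12 weeks, where 3.1% and 3.37% of all pairs were. At 24 weeks 8 of 1162 were higher and 36 lower, where 4.91% and 3.4% were. Under each of these other settings the members' share lay below that of all pairs. This includes the lower pairs at 24 weeks, without doublet removal and at 2-fold. The 3 lower classes held 45 of the 54 lower pairs at 12 weeks and 103 of the 111 at 24 weeks. Cholangiocyte-like cells were 2 clusters whose shares differed between the diets. Within clusters their ratios were 1.01 and 1.03 at 12 weeks and 0.934 at 24 weeks, the last on 13 chow cells.

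**Figure D3:**
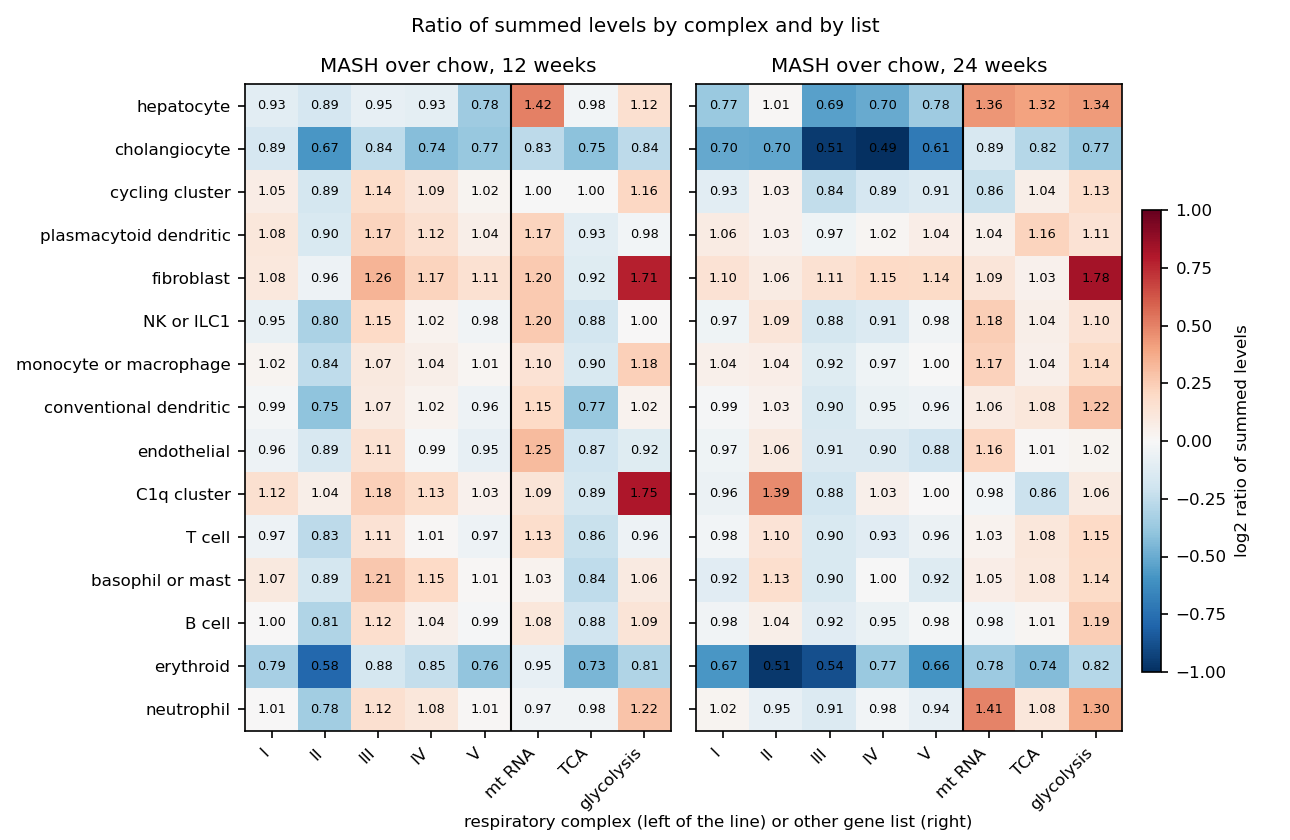
MASH-over-chow ratio of the summed level of each complex, I to V, and, right of the line, of the mitochondrially encoded, citric acid cycle (TCA) and glycolysis genes, in each cell class at 12 and 24 weeks; numbers are ratios and colours their log2. For complexes III to V, hepatocyte-like, cholangiocyte-like and erythroid-like cells have the lowest ratios at both weeks. Fibroblast-like cells lie above 1 for most complexes. For complex II at 12 weeks every class but the C1q cluster (1.04) lies below 1. Conventional dendritic-like cells (0.755) lie there below hepatocyte-like cells (0.889), which are at 1.01 at 24 weeks. Cholangiocyte-like ratios mix clusters whose shares differ between the diets.

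In hepatocyte-like cells the summed level was 0.871 times the chow level at 12 weeks (0.86–0.881) and 0.758 times at 24 weeks (0.752–0.764). Split by hashtag, the 3 MASH values at 12 weeks ran between 42435 and 53928 CPM and the 3 chow values between 55598 and 60918 CPM. At 24 weeks 7 hashtags of MASH with enough cells ran between 53879 and 60807 CPM and 8 of chow between 67995 and 80355 CPM. The ranges did not overlap at either week; cells with 1 hashtag were 201 of 423 and 285 of 616 MASH cells and 422 of 1346 and 615 of 1959 chow cells. MASH also lay wholly below chow in erythroid-like cells at 12 weeks and in NK-like and endothelial-like cells at 24 weeks, and wholly above in plasmacytoid dendritic-like cells at 12 weeks, of 12 and 10 classes with at least 2 hashtags in both diets. In cells with at least 1% mitochondrial UMIs, 162 and 155 MASH cells and 446 and 385 chow cells at 12 and 24 weeks, the ratios were 0.853 and 0.787. The median member had a log2 ratio of -0.09 at 12 weeks and -0.40 at 24 weeks, while the median of all genes compared was 0.01 and 0.19. Relative to that median of all genes, the summed ratio was 0.863 at 12 weeks and 0.664 at 24 weeks. At 12 weeks 0 of 76 members compared were higher and 4 lower, where 8.33% of all genes were higher and 5.58% lower. At 24 weeks 2 of 79 were higher and 23 lower, where 16.0% of all genes were higher and 4.71% lower.

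Complex I, the NADH dehydrogenase, summed to a ratio of 0.928 at 12 weeks and 0.773 at 24 weeks in hepatocyte-like cells. At 12 weeks 2 of its 36 members compared were lower: Ndufb10, an accessory subunit of the membrane arm, with 564 CPM in MASH and 1038 CPM in chow (ratio 0.543, 0.487–0.606), and Ndufs8, an iron-sulphur core subunit, with 175 CPM in MASH and 271 CPM in chow (ratio 0.645, 0.525–0.787). At 24 weeks Ndufs8 was at 333 CPM in MASH and 319 CPM in chow, a ratio of 1.05. The 5 complex I members that were lower at 24 weeks were Ndufa3, Ndufa5, Ndufb7, Ndufc1 and Ndufv3, all accessory subunits. Ndufa5 was at 313 CPM in 24-week MASH and 583 CPM in 24-week chow, a ratio of 0.536 (0.484–0.593). Ndufs1, the large iron-sulphur core subunit, was the only complex I member that was higher, with 112 CPM in 24-week MASH and 67.8 CPM in 24-week chow, a ratio of 1.65 (1.34–2.03); at 12 weeks it was at 106 CPM in MASH and 82.2 CPM in chow, with an interval of 0.963 to 1.72.

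Complex II, succinate dehydrogenase, which also belongs to the citric acid cycle, had a ratio of 0.889 (0.830–0.953) at 12 weeks and 1.01 (0.967–1.06) at 24 weeks, with 0 of its 4 members called at either week. Over all cells complex II had a ratio of 0.811 (0.795–0.827) at 12 weeks and 1.00 (0.985–1.02) at 24 weeks. Across classes its 12-week ratio ran from 0.581 in erythroid-like cells to 1.04 in the C1q cluster. In hepatocyte-like cells complex III, the cytochrome bc1 complex, had a ratio of 0.946 at 12 weeks and 0.688 (0.673–0.703) at 24 weeks. At 24 weeks 5 of its 8 members were lower: Uqcr10, Uqcr11, Uqcrb, Uqcrh and Uqcrq, the small subunits around the catalytic core. Uqcr11 was at 849 CPM in 12-week MASH and 788 CPM in 24-week MASH, against 825 and 1542 CPM in chow, with a 24-week ratio of 0.511 (0.480–0.544). The 24-week chow level stood above the other 3, which lay close together. Uqcrq was also highest in 24-week chow, with 2050 and 2160 CPM in MASH at 12 and 24 weeks and 1827 and 3399 CPM in chow. All 5 of these transcripts are in the short group.

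Complex IV, cytochrome c oxidase, had a ratio of 0.933 at 12 weeks and 0.704 (0.691–0.717) at 24 weeks, with 0 of 11 members called at 12 weeks and 5 of 13 lower at 24 weeks. The 5 were Cox5b, Cox7a1, Cox7a2, Cox7b and Cox7c. Cox5b, a zinc-binding subunit on the matrix side, was at 962 and 1286 CPM in MASH at 12 and 24 weeks and at 1124 and 2022 CPM in chow, a 24-week ratio of 0.636 (0.605–0.669). Cox6a2, the muscle isoform of subunit 6a, was higher at 24 weeks, on 36 UMIs in MASH and 17 in chow (22.8 and 5.73 CPM). Markers of plasmacytoid dendritic cells, the class with the highest Cox6a2 level, summed in hepatocyte-like cells to 240 CPM in 24-week MASH and 129 CPM in 24-week chow, and their part in this result was not tested.

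The ATP synthase had the same ratio at both weeks, 0.781 (0.766–0.796) at 12 weeks and 0.782 (0.773–0.792) at 24 weeks. Atp5g1, 1 of the 3 genes for the proton-carrying c ring, was the only member lower in hepatocyte-like cells at both weeks. It was at 1110 CPM in 12-week MASH and 1465 CPM in 24-week MASH, against 2026 and 2270 CPM in chow, ratios of 0.548 (0.507–0.592) and 0.645 (0.615–0.677). Both MASH values lay below both chow values, and at 2675.5 nucleotides its transcript is among the long group. At 12 weeks Atp5o, part of the peripheral stalk, was also lower, with 681 CPM in MASH and 1069 CPM in chow, a ratio of 0.638 (0.576–0.705). At 24 weeks the other lower members were Atp5e, Atp5h, Atp5j, Atp5j2, Atp5k, Atp5l and Atp5md, small subunits of the central or peripheral stalk and of the membrane part. Atp5e, the epsilon subunit, was at 1524 CPM in 24-week MASH and 2528 CPM in 24-week chow, and at 1656 CPM in 12-week MASH and 1658 CPM in 12-week chow.

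**Figure D4:**
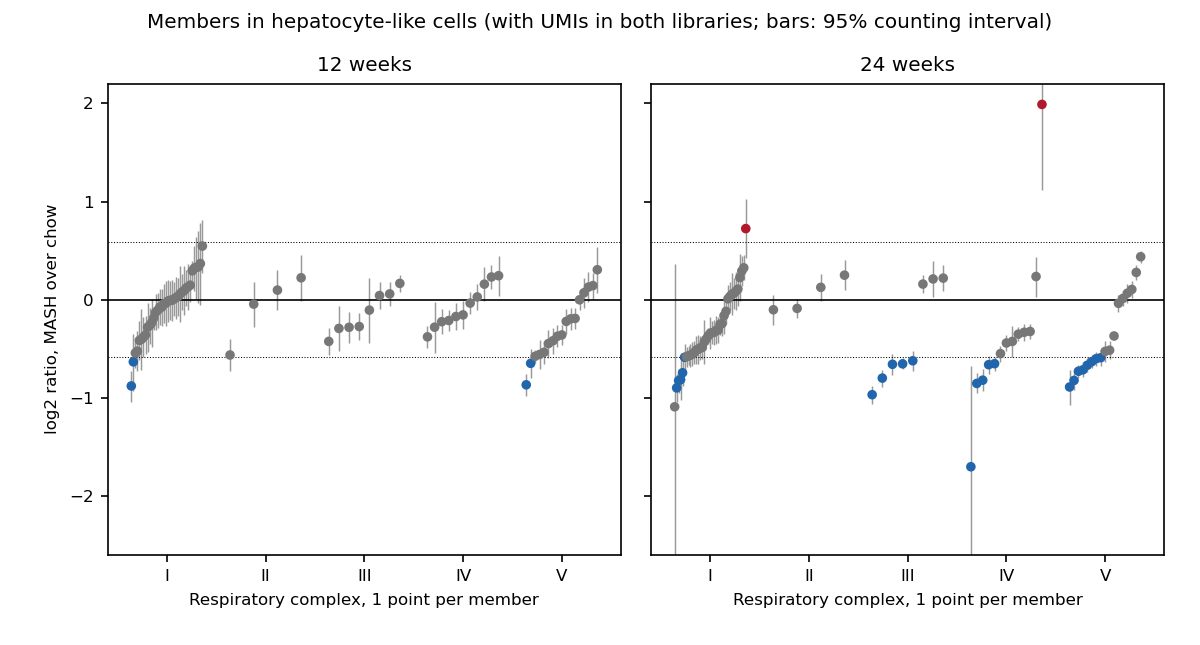
MASH-over-chow ratio (log2) of each member in hepatocyte-like cells with its counting interval, by complex, at 12 and 24 weeks, with dotted lines at 1.5-fold, called members in colour and members at 0 UMIs in a library left out; a few bars run past the axis. At 24 weeks 23 of 79 members are called lower and 2 higher.

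Other mitochondrial genes in the same hepatocyte-like cells did not follow one direction. The 13 mitochondrially encoded subunits summed to 15537 CPM in 12-week MASH and 11253 CPM in 24-week MASH, against 10967 and 8279 CPM in chow, ratios of 1.42 (1.38–1.45) and 1.36 (1.33–1.39). Of the 13, 4 at 12 weeks and 2 at 24 weeks were higher and 0 lower, where, as above, 8.33% and 16.0% of all genes were higher and 5.58% and 4.71% lower. The 13 citric acid cycle genes had a ratio of 0.982 at 12 weeks with 1 lower, and of 1.33 (1.28–1.37) at 24 weeks with 5 higher. The glycolysis list had ratios of 1.12 and 1.34, with Ldha, lactate dehydrogenase A, at 1028 and 1610 CPM in MASH and 538 and 543 CPM in chow, ratios of 1.91 and 2.96. The 78 mitochondrial ribosomal protein genes, nuclear like the members, stood at 0.896 and 0.963, and the 41 assembly factors of the respiratory chain at 0.987 and 0.953. Stress genes that respond to cell isolation stood at 1.11 at 12 weeks and 0.806 at 24 weeks; their part in the results was not tested. At 24 weeks the short members had a median log2 ratio of -0.59, where other short genes had -0.14, and the long members 0.07, where other long genes had 0.22.

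In cholangiocyte-like cells, the bile duct lining, the summed level was 0.803 times the chow level at 12 weeks (0.791–0.816) and 0.595 times at 24 weeks (0.590–0.600). Of 78 members compared, 1 was higher and 19 lower at 12 weeks, where 10.3% of all genes were higher and 7.66% lower. At 24 weeks 1 was higher and 48 lower, where 28.9% and 10.6% of all genes were. Lower at both weeks were Cox7a1 and Cox5a of complex IV, Ndufb9 and Ndufb10 of the complex I membrane arm, and Atp5d and Atp5o of the ATP synthase stalks, among others. Cox7a1, an isoform known from heart and skeletal muscle, was at 34.6 and 24.6 CPM in MASH at 12 and 24 weeks and at 80.3 and 172.5 CPM in chow, ratios of 0.431 (0.297–0.631) and 0.143 (0.117–0.173).

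The class is made of 2 clusters that differed in level and in their share of cells between the diets; the part of that in the ratios was not tested. The larger cluster, led by Spp1, Clu, Tm4sf4 and Epcam, held 168 and 549 MASH cells at 12 and 24 weeks and 39 and 13 chow cells. The smaller, led by Dmbt1, Spink4, Tff2, Tff3 and Krt19, held 14 and 0 MASH cells and 26 and 60 chow cells. The member genes summed to 27315 and 26365 CPM in MASH and 27078 and 28241 CPM in chow in the larger cluster, and to 45822 CPM in 12-week MASH and 44362 and 45867 CPM in chow in the smaller one. Within the larger cluster the ratio was 1.01 (0.985–1.03) at 12 weeks and 0.934 (0.905–0.963) at 24 weeks, and within the smaller 1.03 (1.01–1.06) at 12 weeks. In the larger cluster 2 of 78 members were higher and 1 lower at 12 weeks, where 3.72% and 5.56% of all genes were, and 0 higher and 6 lower at 24 weeks, where 1.72% and 3.15% were. In the smaller cluster 5 of 77 were higher and 4 lower at 12 weeks, where 3.82% and 5.91% were. Cox7a1 stood at 22.3 and 24.6 CPM in MASH and 33.0 and 28.1 CPM in chow in the larger cluster, and at 145 CPM in 12-week MASH and 122 and 186 CPM in chow in the smaller. Within clusters the difference of the class was thus not seen at 12 weeks, and the 24-week ratio rests on 13 chow cells. Hepatocyte markers in the class summed to 5767 and 5873 CPM in MASH and 5097 and 3262 CPM in chow, and their part was not tested.

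In erythroid-like cells, red blood cells and their precursors, the summed level was 0.801 times the chow level at 12 weeks (0.782–0.820) and 0.672 times at 24 weeks (0.642–0.703), on 345 and 92 MASH cells and 283 and 38 chow cells. Of the members compared, 0 of 78 were higher and 22 lower at 12 weeks, where 2.31% of all genes were higher and 13.3% lower; 1 of 75 was higher and 32 lower at 24 weeks, where 4.3% and 9.97% were. The succinate dehydrogenase subunits Sdhb and Sdhd were lower at both weeks, Sdhd with 27.7 and 24.9 CPM in MASH at 12 and 24 weeks and 62.0 and 82.1 CPM in chow. Ndufv1, the flavin-carrying core subunit of complex I, had ratios of 0.401 and 0.410. Atp5g3 of the ATP synthase c ring had ratios of 0.541 and 0.548, Cox5a of complex IV of 0.614 and 0.507, and Uqcrq of complex III of 0.634 and 0.333. The median of all genes compared also lay below 0 here, at log2 -0.25 and -0.16, and relative to it the summed ratio was 0.953 at 12 weeks and 0.750 at 24 weeks. Without doublet removal the MASH-over-chow ratio of the summed level was 0.922 and 0.788 at 12 and 24 weeks. The 6 erythroid markers themselves held 302050 and 306659 CPM of the class in MASH and 176222 and 233468 CPM in chow, and the part of that difference in the other genes' shares was not tested. Hepatocyte markers in these cells summed to 252 and 139 CPM in MASH and 601 and 2140 CPM in chow, with 2 of the 8 at 0 in 24-week MASH; their part in the result was not tested.

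In fibroblast-like cells, collagen-producing cells of the liver, the summed level was higher in MASH at both weeks. The members summed to 20852 CPM in 12-week MASH and 24219 CPM in 24-week MASH, against 18588 and 21491 CPM in chow, ratios of 1.12 (1.09–1.15) and 1.13 (1.1–1.16). The class held 292 and 129 MASH cells but 86 and 39 chow cells. Its median cell held 9029.5 and 12667 UMIs in MASH and 4006 and 6239 in chow, and the part of depth was not tested. At 12 weeks 9 of 79 members compared were higher and 0 lower, where 6.7% of all genes were higher and 8.85% lower; at 24 weeks 6 of 78 were higher and 1 lower, where 7.08% and 10.8% were. In 12-week cells carrying a single hashtag, 150 in MASH and 24 in chow, the ratio was 1.01. Relative to genes of like length the ratio was 1.03 at 12 weeks and 1.15 at 24 weeks.

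Members higher in fibroblast-like cells at both weeks were Ndufa10 and Cox7c. Ndufa10, an accessory subunit of complex I, was at 92.4 and 97.2 CPM in MASH at 12 and 24 weeks and at 51.1 and 43.5 CPM in chow, ratios of 1.81 (1.14–3.04) and 2.24 (1.25–4.40) that rest on 19 and 12 chow UMIs. Cox7c, a small subunit of complex IV, was at 338 and 484 CPM in MASH and 220 and 304 CPM in chow, ratios of 1.53 and 1.59. The complex III core subunits Uqcrc1 and Uqcrc2 were higher at 24 weeks only, by 1.92-fold and 2.02-fold, on 20 and 16 chow UMIs; at 12 weeks Uqcrc2 had a ratio of 0.704. Atp5g3, another gene of the c ring, was at 1216 CPM in 24-week MASH and 713 CPM in 24-week chow, a ratio of 1.70 (1.47–1.98), and had a ratio of 1.07 at 12 weeks.

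Glycolysis genes were further apart than the members in fibroblast-like cells, at 3437 and 4141 CPM in MASH at 12 and 24 weeks and 2006 and 2329 CPM in chow, ratios of 1.71 and 1.78. Of the rows compared, 9 of 14 and 8 of 13 were higher, and 0 and 1 lower. Of all genes, 6.7% and 7.08% were higher and 8.85% and 10.8% lower in these cells. Aldoa is listed on 2 rows. Gapdh had ratios of 2.98 and 2.07 and Ldha of 2.52 and 3.10. Ucp2, an inner-membrane carrier of the uncoupling protein family, was at 262 and 703 CPM in MASH and 91.4 and 206 CPM in chow, ratios of 2.86 and 3.40. Atpif1, the inhibitor of ATP synthase hydrolysis, had ratios of 1.66 and 1.58. Isolation stress genes stood at 1.25 at 12 weeks and 0.675 at 24 weeks in these cells, and their part was not tested.

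In the other 11 classes the summed ratios lay between 0.976 and 1.1 at 12 weeks and between 0.907 and 1.03 at 24 weeks. Endothelial-like cells had 0 of 77 and 0 of 76 members called at 12 and 24 weeks, where 5.71% and 11.1% of all genes were higher and 5.46% and 6.98% lower. Plasmacytoid dendritic-like cells had 8 of 77 members higher and 0 lower at 12 weeks, where 3.25% and 3.89% of all genes were, and 0 called at 24 weeks, where 2.9% and 4.92% were. The largest 12-week ratio among members with at least 50 UMIs in each library was that of Atp5k, a small membrane subunit of the ATP synthase, in these cells, at 94.9 CPM in MASH and 33.4 CPM in chow (2.84, 2.12–3.85). In monocyte-like cells 5 of 78 members were higher and 2 lower at 12 weeks, where 4.36% and 4.04% of all genes were, and 0 and 1 at 24 weeks, where 4.62% and 3.99% were. In NK-like cells 3 of 77 were higher and 1 lower at 12 weeks, where 3.24% and 4.68% were, and 1 and 0 at 24 weeks, where 4.84% and 5.89% were. In neutrophil-like cells 6 of 76 were higher and 1 lower at 12 weeks, where 4.59% and 4.99% were, and 4 of 78 and 0 at 24 weeks, where 14.1% and 5.17% were. Monocyte-like cells had an Atp5k ratio of 2.07 at 12 weeks, and at 24 weeks the ratios were 0.966 and 0.891 in these 2 classes. Atp5k has the shortest transcript of the 84, at 321.5 nucleotides, and over all cells it was at 85.3 and 66.1 CPM in MASH at 12 and 24 weeks and 58.7 and 95.9 CPM in chow, lowest in 12-week chow. The shares of all genes given for these classes are over genes of every length. At 12 weeks short members had a higher median log2 ratio than long members in 15 of 15 classes. Other short genes did so in 14. The part of length in the 12-week counts of higher members was not tested. At 24 weeks the 3 largest ratios by the same limit were those of Atp5g3 in fibroblast-like cells and Ndufs1 in hepatocyte-like cells, given above, and of Ndufs8 in NK-like cells. Ndufs8 was there at 120 CPM in MASH and 73.8 CPM in chow (1.63, 1.41–1.88); at 12 weeks it was at 70.1 CPM in MASH and 102 CPM in chow.

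Between weeks, more members were past the limit in chow than in MASH. Over all cells the summed level at 24 weeks was 1.04 times that at 12 weeks in MASH and 1.1 times in chow. Of the member and class pairs in MASH, 20 of 1165 were higher at 24 weeks and 16 lower, where 8.46% and 7.21% of all pairs were. In chow 121 of 1155 were higher and 21 lower, where 6.16% and 7.19% were. In hepatocyte-like cells the ratio was 1.07 (1.06–1.09) in MASH, with 5 of 77 members higher and 1 lower, where 8.22% of all genes were higher and 11.3% lower. In chow it was 1.23 (1.22–1.24), with 19 of 79 higher and 1 lower, where 4.57% of all genes were higher and 17.1% lower. The 24-week chow library enters both this comparison and the 24-week diet comparison, so they are not independent. In MASH the short group stood above the long group in 1 of 15 classes for 24 over 12 weeks, and in chow in 15 of 15, with a median gap of 0.46 in log2.

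Some subunits have more than 1 gene, and several of these isoforms were concentrated in 1 class. Cox6a2, known as the heart and skeletal muscle isoform of subunit 6a, was at 1916 and 1991 CPM in MASH and 1600 and 1813 CPM in chow in plasmacytoid dendritic-like cells, while the median class held between 5.7 and 10.7 CPM. Its partner isoform Cox6a1 was present in the same cells at 464 and 382 CPM in MASH and 465 and 405 CPM in chow. The Cox6a2 ratios of 1.20 and 1.1 in these cells stayed short of the 1.5-fold limit. Elsewhere the gene was called lower in monocyte-like cells at both weeks, on 10 and 28 MASH UMIs and 15 and 25 chow UMIs, with ratios of 0.239 and 0.242. At 12 weeks it was also called higher in NK-like, T-cell-like and cycling cells. At 24 weeks it was called higher in conventional dendritic-like and erythroid-like cells and lower in B-cell-like and cycling cells. It was called higher in neutrophil-like cells at both weeks, at 44.6 and 14.6 CPM in MASH and 0 and 6.82 CPM in chow; markers of plasmacytoid dendritic cells summed there to 287 and 145 CPM in MASH and 141 and 113 CPM in chow, with 2 of the 7 at 0 in 12-week chow. In monocyte-like cells, where Cox6a2 was lower, these markers summed to 451 and 398 CPM in MASH and 429 and 439 CPM in chow. Of the 7 markers, 1 was at 0 there in 12-week MASH. In endothelial-like cells at 12 weeks the markers summed to 1130 CPM in MASH and 1195 CPM in chow. Cox6a2 was at 1.94 CPM in MASH and 0.973 CPM in chow in those cells. The part of free RNA from plasmacytoid dendritic cells was not tested.

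Ndufa4l2, a paralogue of Ndufa4 known as a target of hypoxia-inducible factor, was highest in fibroblast-like cells. It was at 87.2 and 26.7 CPM in MASH at 12 and 24 weeks and 35.0 and 7.24 CPM in chow there, ratios of 2.49 (1.44–4.73) and 3.69 (0.976–31.2), the last on 2 chow UMIs. Over all cells it was at 5.17 and 0.780 CPM in MASH and 0.414 and 0.363 CPM in chow, sums in which the number of fibroblast-like cells and the RNA in each cannot be told apart. Ndufa4 itself, now assigned to complex IV although its symbol places it in complex I here, was highest in hepatocyte-like cells in all 4 libraries. Cox6b2, an isoform known from testis, was also highest in fibroblast-like cells, at 29.4 and 39.1 CPM in MASH and 35.0 and 47.1 CPM in chow, with ratios below 1, while its ratios over all cells were 1.60 and 2.55. Cox4i2, the lung and hypoxia-linked isoform of subunit 4, had 94 UMIs in all, and Cox8b, a muscle isoform, had 4. Cox6b1, Cox7a2, Cox7b, Atp5g1 and Atp5g3 peaked in hepatocyte-like cells in all 4 libraries, and Cox7a2l, a factor for assembling respiratory supercomplexes, in cholangiocyte-like cells.

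**Figure D5:**
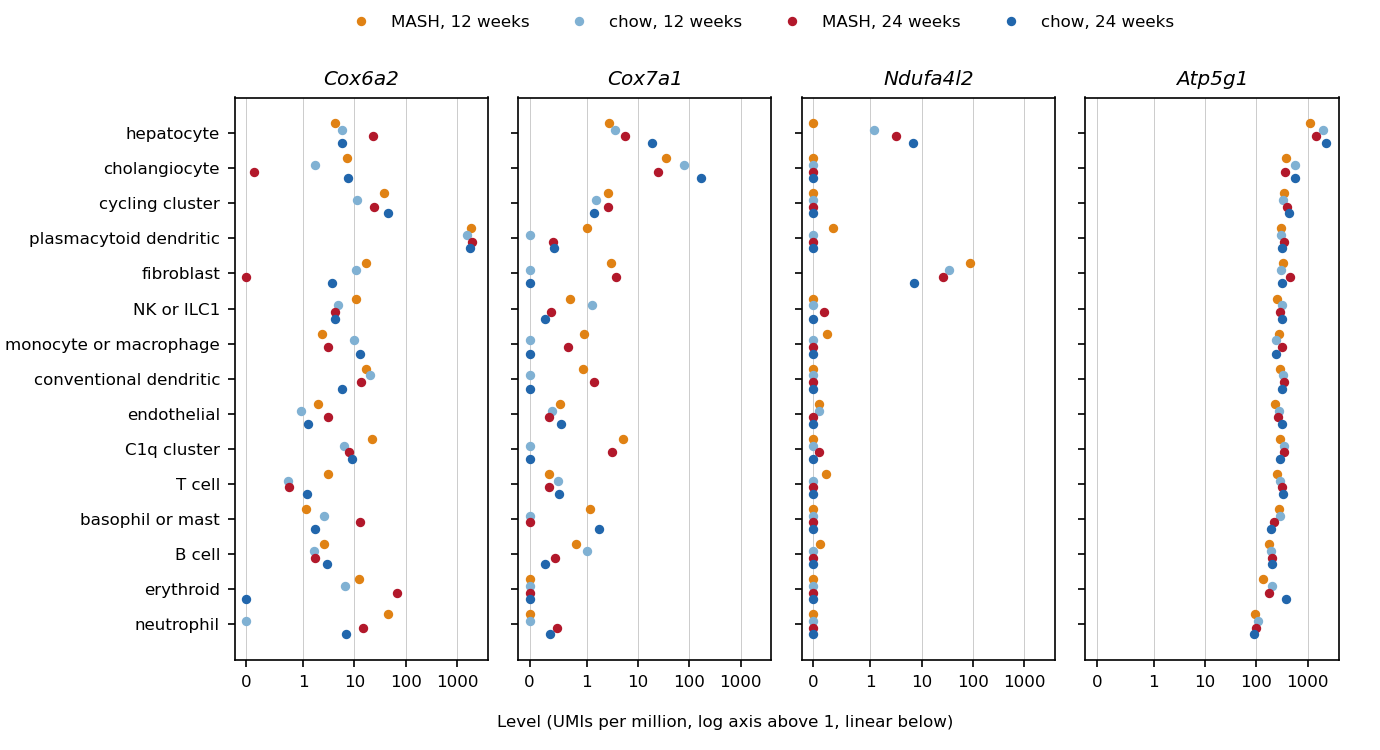
Level (CPM, on an axis that is linear below 1 and logarithmic above) of Cox6a2, Cox7a1, Ndufa4l2 and Atp5g1 by cell class, 1 point per library. Cox6a2 stands out in plasmacytoid dendritic-like cells at 1600 to 1991 CPM, Cox7a1 in cholangiocyte-like cells and Ndufa4l2 in fibroblast-like cells.

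Promoter windows of 300 bases, from 250 before to 50 after the annotated start, were available from RefSeq (GRCm38.p6) for 67 of the 84 members. Nuclear respiratory factor 1 (NRF1), ETS-family factors and YY1 are known regulators of nuclear respiratory genes, and their motif letters were searched on both strands. The stretch GCATGCG of the NRF1 motif was found in 11 of the 67 members (16.4%), where 4.01% of 27025 genes had it. The stretch TGCGCA of the same motif, which overlaps the first where both are present side by side, was in 17 (25.4%), where 8.79% of all genes had it. The ETS motif CCGGAAG was in 17 (25.4%), where 9.93% had it, the YY1 motif AAGATGG in 10 (14.9%), where 7.28% had it, and the CCAAT box in 30 (44.8%), where 41.1% had it. These are matches of letters, not measured binding. The 11 members with GCATGCG were Atp5g2, Atp5j, Atp5k, Atp5l, Cox6a1, Ndufa11, Ndufa6, Ndufa8, Sdhb, Uqcr11 and Uqcrc1.

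The windows of a restricted complex IV isoform, a broad isoform of another complex IV subunit and a pair of c-ring genes are printed to show members with few and with several of these motifs, 5′ to 3′ in the direction of the gene, with capitals marking these motifs on either strand. Cox7a1 lies on the plus strand at chr7:30183921-30184220, Cox6a1 on the minus strand at chr5:115348909-115349208, Atp5g1 on the minus strand at chr11:96075582-96075881 and Atp5g2 on the minus strand at chr15:102670998-102671297.
Cox7a1: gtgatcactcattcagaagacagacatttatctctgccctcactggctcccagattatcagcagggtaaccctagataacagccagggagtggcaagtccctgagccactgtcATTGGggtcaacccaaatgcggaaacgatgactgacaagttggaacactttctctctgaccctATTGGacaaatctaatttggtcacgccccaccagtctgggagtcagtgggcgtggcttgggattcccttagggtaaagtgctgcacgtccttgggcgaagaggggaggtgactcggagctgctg
Cox6a1: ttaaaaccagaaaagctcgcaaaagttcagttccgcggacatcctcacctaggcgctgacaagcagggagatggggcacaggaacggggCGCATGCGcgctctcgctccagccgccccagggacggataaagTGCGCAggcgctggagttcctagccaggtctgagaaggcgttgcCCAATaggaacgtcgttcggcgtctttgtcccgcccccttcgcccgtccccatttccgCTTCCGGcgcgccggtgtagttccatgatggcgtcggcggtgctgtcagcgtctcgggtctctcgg
Atp5g1: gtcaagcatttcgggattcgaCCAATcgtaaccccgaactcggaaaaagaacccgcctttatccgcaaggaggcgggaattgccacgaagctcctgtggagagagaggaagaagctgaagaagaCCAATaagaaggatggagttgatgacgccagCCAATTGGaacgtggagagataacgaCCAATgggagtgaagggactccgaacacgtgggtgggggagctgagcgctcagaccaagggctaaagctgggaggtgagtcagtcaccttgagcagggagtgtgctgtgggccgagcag
Atp5g2: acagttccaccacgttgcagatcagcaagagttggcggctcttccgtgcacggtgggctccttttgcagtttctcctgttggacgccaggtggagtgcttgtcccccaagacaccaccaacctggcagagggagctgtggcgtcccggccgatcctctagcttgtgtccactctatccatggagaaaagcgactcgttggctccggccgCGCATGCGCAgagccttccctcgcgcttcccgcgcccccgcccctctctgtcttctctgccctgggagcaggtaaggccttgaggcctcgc
Cox6a1, whose top class was the cycling cluster or cholangiocyte-like cells in all 4 libraries, holds both NRF1 stretches, an ETS motif and a CCAAT box. Atp5g2 holds both NRF1 stretches and no other motif searched. Cox7a1, whose highest levels were in the smaller cholangiocyte cluster, and Atp5g1, the c-ring gene lower in MASH hepatocyte-like cells, hold CCAAT boxes alone among the motifs searched.

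Among members with UMIs in every library, those with the most and the fewest UMIs over all cells in each complex were Ndufa4 and Ndufa4l2 in complex I, Sdhb and Sdhc in complex II, Uqcrh and Uqcrc2 in complex III, Cox4i1 and Cox4i2 in complex IV and Atp5e and Atp5k in complex V. Cox4i1, the common isoform of subunit 4, was at 1008 and 1017 CPM in MASH at 12 and 24 weeks and 1137 and 1029 CPM in chow. Sdhb was at 118.5 and 152 CPM in MASH and 158 and 145 CPM in chow, ratios of 0.751 and 1.05. Of these 10 genes, Ndufa4l2 at both weeks and Cox4i2 at 24 weeks, the last on 55 MASH and 3 chow UMIs, passed the 1.5-fold limit. Uqcrq passed it in the other direction at 24 weeks, with 276.5 CPM in MASH and 447 CPM in chow, a ratio of 0.619 (0.608–0.630), against 254 CPM in MASH and 273 CPM in chow at 12 weeks.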

How the data were processed

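Whole-number UMI counts per gene and barcode were deposited by the authors, 1 matrix per library, made with Cell Ranger 4 (12-week MASH) or 5.0.1 (the other 3 libraries), per the file headers. The builds GRCh38 and mm10 are named in the submitters' processing notes, without their roles. Cells with at least 500 gene UMIs, at least 300 genes and at most 15% mitochondrial UMIs were kept, and doublets were removed with Scrublet in scanpy 1.11.5 (12.6% and 12.0% of MASH cells and 11.3% and 20.7% of chow cells at 12 and 24 weeks). Several hashtags were found on 27.1% and 25.0% of MASH cells and 20.7% and 23.1% of chow cells before that step, of which it removed 26.3% and 33.5% in MASH and 26.1% and 50.7% in chow, so most of these cells stayed except in 24-week chow. Cells were clustered with leidenalg 0.10.2 (resolution 1, 30 principal components, 15 neighbours) and named from marker lists. After the clusters were seen, a cluster led by Malat1 was left unnamed and 2 clusters were called by their leading genes.

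UMIs were summed per class and library and divided by the class total. Intervals are exact, Poisson for levels and conditional binomial for ratios (scipy 1.17.1, numpy 2.4.6, Python 3.11.15), and cover counting error only. The calling rule was run on simulated Poisson counts without variation between libraries or animals. That run therefore cannot show how the calls hold up against such variation. A class is compared where both libraries hold at least 20 of its cells. The members and lists were chosen with earlier results of these data known. Genes named are the highest and lowest member of each complex, a fixed list of isoforms, members past the limit in the same direction at both weeks (at most 6 per class), the 3 largest and 3 smallest ratios at each week among members with at least 50 UMIs in each library, and up to 4 genes of a list; other members in hepatocyte-like and fibroblast-like cells were named after their values were seen. The promoter motifs for NRF1 and YY1 were shortened to 7 or fewer letters after longer forms had been searched, which matched fewer members and fewer of all genes. Transcript lengths are the median over protein-coding GENCODE M21 transcripts. Alternatives tried were no doublet removal, a stricter cell filter (1000 UMIs, 10% mitochondrial), a resolution of 0.5, another denominator, equal weight per cell, scaling by the median gene, hashtag subsets, a fold limit of 2, no filter on low counts and, chosen after seeing the data, scaling to genes of like length, single clusters, and sums without some cells.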

Additional observations from a re-analysis of the deposited data

Results flagged for a closer look

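In 3 classes the summed level of the members stood on opposite sides of the chow level at the 2 weeks, with the counting intervals off 1 at both. B-cell-like cells had a MASH-over-chow ratio of 1.01 at 12 weeks and 0.968 at 24 weeks, basophil-like or mast-like cells 1.08 and 0.942, and the cycling cluster 1.05 and 0.907. Under some settings these sides were lost: basophil-like or mast-like cells were at 1.05 at 24 weeks in single-hashtag cells and at 1.01 at 12 weeks with cells weighted equally, and B-cell-like cells were at 1.00 at 12 weeks under the coarser clustering and at 0.999 at 24 weeks relative to genes of like length. With 1 library per group, the difference between weeks was not tested.

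Over all cells, the 25 short members compared had a median log2 ratio of 0.18 at 12 weeks and -0.23 at 24 weeks. This difference was not tested either.

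The deposited 12-week MASH matrix also lists barcodes with few UMIs. The 362780 barcodes with 1 to 99 UMIs held 795237 UMIs, of which 12257 were of the members, a level of 15413 CPM; the other 3 libraries list 0 such barcodes.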

How the results depend on the processing

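No paired analysis was possible because each group is 1 library and no test was made. Of 207 ratios of other classes and settings, 96 moved by no more than their counting interval, and 111 moved beyond it; 198 moved by less than 1.1-fold, and 19 fell on the other side of 1. Values below are MASH-over-chow ratios of the summed level at 12 and then 24 weeks, given where they moved beyond that interval; the cause was not tested.

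Over all cells they were 0.966 and 0.909 without doublet removal, 0.966 and 0.875 with the other denominator, 0.978 and 0.923 under the stricter filter, 0.995 and 0.948 where cells carried 1 hashtag, 0.880 and 0.838 with every cell weighted equally, 0.980 and 0.904 at chow class shares, 0.955 and 0.895 without unnamed clusters, and 1.02 and 0.990 without hepatocyte-like cells. Against 24-week chow hashtags 1 to 4 and 5 to 8 they were 0.909 and 1.01.

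In hepatocyte-like cells they were 0.843 and 0.812 without doublet removal and 0.853 and 0.787 in cells with at least 1% mitochondrial UMIs. At 12 weeks they were 0.850 with the other denominator, 0.905 with equal weights and 0.888 relative to genes of like length. At 24 weeks they were 0.765 under the stricter filter, 0.711 and 0.792 against hashtags 1 to 4 and 5 to 8, and 0.664 scaled by the median gene.

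In cholangiocyte-like cells they were 0.775 and 0.639 without doublet removal, 0.861 and 0.624 with equal weights, 0.730 and 0.475 scaled by the median gene, 0.760 and 0.560 relative to genes of like length, and 1.01 and 0.934 in the larger cluster. The smaller cluster gave 1.03 at 12 weeks; at 24 weeks the other denominator gave 0.555 and hashtags 1 to 4 gave 0.561. In fibroblast-like cells at 12 weeks they were 1.01 in single-hashtag cells, 1.18 with the other denominator, 1.08 with equal weights and 1.03 relative to genes of like length; at 24 weeks scaling by the median gene gave 1.16. Hashtag subsets of fibroblast-like cells at 24 weeks, and hashtags 5 to 8 of cholangiocyte-like cells, held under 20 cells and gave no value.

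At a fold limit of 2, 12 pairs were higher and 9 lower at 12 weeks, and 8 and 36 at 24 weeks. Relative to genes of like length 40 were higher at 12 weeks, and without doublet removal 72 were lower at 24 weeks; the shares of all pairs stand with the main counts. At 24 weeks the summed level was higher in 0 and lower in 11 of 12 classes with a value against hashtags 1 to 4, where the whole library gave 1 and 10 of the same classes, and higher in 2 and lower in 6 of 11 against 5 to 8, where it gave 1 and 9. At the coarser clustering, C1q and monocyte classes gave no value.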
